A study of Mus musculus with 12 samples.

Results

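The B cell cytokine genes described here are 10 genes for secreted or cell-surface signalling proteins: Tnf, Lta and Ltb of the tumour necrosis factor family, Il6, Il10, the subunit genes Ebi3 and Il12a, Tgfb1, and the chemokine genes Ccl3 and Ccl4. They were chosen by name from a table of 63759 transcripts that was summed to 32699 genes, and 18 transcript rows carried their names. The RNA came from mouse splenic B cells in 12 libraries, 3 in each of 4 groups. The groups were wild type (WT) and a knockout (KO) of Chd4, which encodes an ATP-driven chromatin remodeller of the NuRD complex, each without stimulation (0 hr) or after 48 hr ex vivo with 10 µg/ml lipopolysaccharide (LPS) and 25 ng/ml interleukin 4 (IL-4). Replicates 1 to 3 were WT 0 hr, 4 to 6 KO 0 hr, 7 to 9 WT 48 hr and 10 to 12 KO 48 hr. The strain, age and number of mice, the deleted part of Chd4, and any Cre driver are not given in the sources used here. Separate animals or cultures are not stated for the replicates, so p-values here reflect the spread between these samples only, which may be technical.

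LPS is sensed through Toll-like receptor 4 and activates NF-kB and AP-1 factors, which drive many cytokine genes, while IL-4 acts through STAT6 and supports growth and antibody class switching. B cells are known both for cytokines that promote immune responses, such as IL-6 and TNF, and for IL-10, which restrains them. Lymphotoxin on B cells shapes the follicles of lymphoid organs, EBI3 pairs with other subunits to form IL-27 or IL-35, TGF-beta 1 is made in a latent form and can direct switching to IgA, and CCL3 and CCL4 are chemokines that attract other immune cells.

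Levels are given as CPM, the counts of a gene for each M counts of its library, on library sizes scaled by TMM (trimmed mean of M values). A gene was called changed at a Benjamini-Hochberg adjusted p below 0.05 in edgeR's quasi-likelihood test over 19125 genes. The libraries held 39 to 53.2 M estimated counts. At 0 hr, Chd4 ranged from 68.1 to 99.4 CPM in WT and from 70.6 to 100 CPM in KO, so its RNA did not separate the labels there. At 48 hr it was at 96.1 to 123 CPM in WT and at 38.8 to 74.7 CPM in KO. A read-out of total Chd4 RNA can include reads outside a deleted part, so below, KO and WT mean the libraries labelled so. Genotype also moved with sex-linked RNA in all libraries: Xist was at 75.4 CPM or more in WT and at 1.59 CPM or less in KO, and Y-linked Ddx3y was at 20.8 to 28.3 CPM in WT and 91.8 to 139 CPM in KO. The labels do not give the sex of the mice. A difference between the genotype labels and a difference that goes with these sex-linked RNAs cannot be told apart. On the second principal component of all genes, KO replicates 6 (10.8) and 12 (7.5) lay nearer to the WT libraries (15.4 to 42.4) than the other KO libraries (-76.7 to -23.6) did, and values without those 2 libraries are given where they change a call.

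The promoters of 4 cytokine genes are shown because these genes differ in how they behaved over the 48 hr: Il6 and Ebi3 rose most among those with a printed promoter, Tnf rose less, and its neighbour Lta did not rise. Each run is the 250 bases before the RefSeq start site (GRCm38.p6), 5′ to 3′ on the strand of the gene. Capitals mark matches to the motifs searched on both strands.
Il6, chr5:30012864-30013113, plus strand: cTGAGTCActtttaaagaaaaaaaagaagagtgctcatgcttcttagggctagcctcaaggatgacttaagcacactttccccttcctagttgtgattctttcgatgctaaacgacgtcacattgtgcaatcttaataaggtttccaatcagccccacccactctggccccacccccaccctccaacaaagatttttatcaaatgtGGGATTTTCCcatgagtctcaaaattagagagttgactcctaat
Ebi3, chr17:55952373-55952622, plus strand: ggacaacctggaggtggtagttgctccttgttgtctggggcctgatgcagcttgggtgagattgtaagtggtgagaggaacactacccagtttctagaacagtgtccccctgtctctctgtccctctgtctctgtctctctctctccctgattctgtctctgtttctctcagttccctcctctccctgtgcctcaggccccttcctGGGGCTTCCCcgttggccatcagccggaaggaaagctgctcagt
Tnf, chr17:35202008-35202257, minus strand: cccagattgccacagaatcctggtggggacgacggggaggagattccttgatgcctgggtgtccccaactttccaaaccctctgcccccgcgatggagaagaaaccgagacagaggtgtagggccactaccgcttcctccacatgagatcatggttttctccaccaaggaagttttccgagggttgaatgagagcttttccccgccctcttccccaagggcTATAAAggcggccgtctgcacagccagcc
Lta, chr17:35205352-35205601, minus strand: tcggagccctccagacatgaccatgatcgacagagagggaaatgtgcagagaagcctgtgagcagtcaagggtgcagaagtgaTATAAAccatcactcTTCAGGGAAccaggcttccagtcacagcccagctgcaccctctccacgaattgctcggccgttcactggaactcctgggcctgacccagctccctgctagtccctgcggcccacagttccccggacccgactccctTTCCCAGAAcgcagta

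In Il6 the capitals are an AP-1 match (TGANTCA) near the far end of the window and an NF-kB match at 44 to 35 bases before the start. In Ebi3 they are an NF-kB match at the same distance, 44 to 35 bases. In Tnf the capitals are TATAAA at 29 to 24 bases, and in Lta they are TATAAA at 167 to 162 bases and matches to the STAT motif TTCNNNGAA at 152 to 144 and 16 to 8 bases. No match overlapped another. In 32851 RefSeq promoters, 7.25% held the NF-kB motif, 6.75% the AP-1 motif, 7.02% the STAT motif and 12.4% TATAAA, so each match is common and describes letters only. Of the other members, Ltb held an NF-kB and a STAT match, Tgfb1 held an NF-kB match, and the windows of Il12a and Ccl3 held none of the 4 motifs. Il10 and Ccl4 were not matched to the promoter table.

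A second sequence feature of this group lies at the other end of the transcript. Cytokine mRNAs often carry AU-rich elements in the 3′ UTR, built on ATTTA, which proteins of the ZFP36 family bind to speed decay of the mRNA. Windows of 30 bases from the 3′ UTRs of 5 members are shown because they hold the densest ATTTA runs of the group, with ATTTA in capitals, written as DNA from GENCODE M21 models on mm10, 5′ to 3′ on the gene's strand.
Tnf, 3′ UTR bases 437 to 466: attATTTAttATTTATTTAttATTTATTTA
Il12a, 3′ UTR bases 384 to 413: gcctATTTAtATTTATTTAttttctATTTA
Il6, 3′ UTR bases 129 to 158: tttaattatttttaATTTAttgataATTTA
Ccl3, 3′ UTR bases 139 to 168: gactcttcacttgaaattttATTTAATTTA
Lta, 3′ UTR bases 300 to 329: tATTTAtggagagaaaagttaagttATTTA

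Over the whole 3′ UTR, ATTTA occurred 8 times in Tnf, 6 times each in Il6, Il10 and Il12a, 5 times in Ccl3, 3 times in Lta, 2 times in Ccl4, once each in Ebi3 and Tgfb1, and 0 times in Ltb. The longer element TTATTTATT occurred 5 times in Tnf and once each in Il12a and Lta, and 7.18% of 20980 protein-coding genes held it at least once. Per length, Il6 had 14.1 ATTTA per kb, a density that 0.524% of genes reached or passed, Ccl3 had 12.2 (0.772%), Il12a 12.2 (0.777%) and Tnf 10.5 (1.21%), against a median of 1.17 over all genes. The 6 members that rose in WT over 48 hr included the ATTTA-rich Tnf, Il6, Il10 and Ccl3 and also Ebi3 with 1 ATTTA, and the ATTTA-rich Il12a fell.

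Over 48 hr with LPS and IL-4, some cytokine genes rose and others fell. In WT, 6 of the 10 rose (Il6, Il10, Ebi3, Ccl3, Tnf and Ccl4), 3 fell (Ltb, Il12a and Tgfb1), and Lta did not pass the test. In KO the same 6 rose, and Ltb, Il12a, Tgfb1 and Lta fell. For comparison, 73.9% of all tested genes were called in WT (33% higher, 40.9% lower) and 70.7% in KO (33% higher, 37.7% lower), so most genes moved and a call by itself sets no member apart. The median log2 change was 1.77 over the members in WT and 2.25 in KO, against -0.39 and -0.30 over all tested genes. All 10 members passed the low-count filter, also when only the 0 hr libraries were used. Il6 and Il10 were under 0.4 CPM in every 0 hr library, so their changes rest on few 0 hr counts. The numbers of members called and the medians are a description. In bulk RNA, fewer cells of a type and less RNA per cell cannot be told apart. The 48 hr and 0 hr CPM did not overlap for any of the 10 genes in either genotype, where 79.8% of all genes did not overlap in WT and 72.5% in KO.

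**Figure D1:**
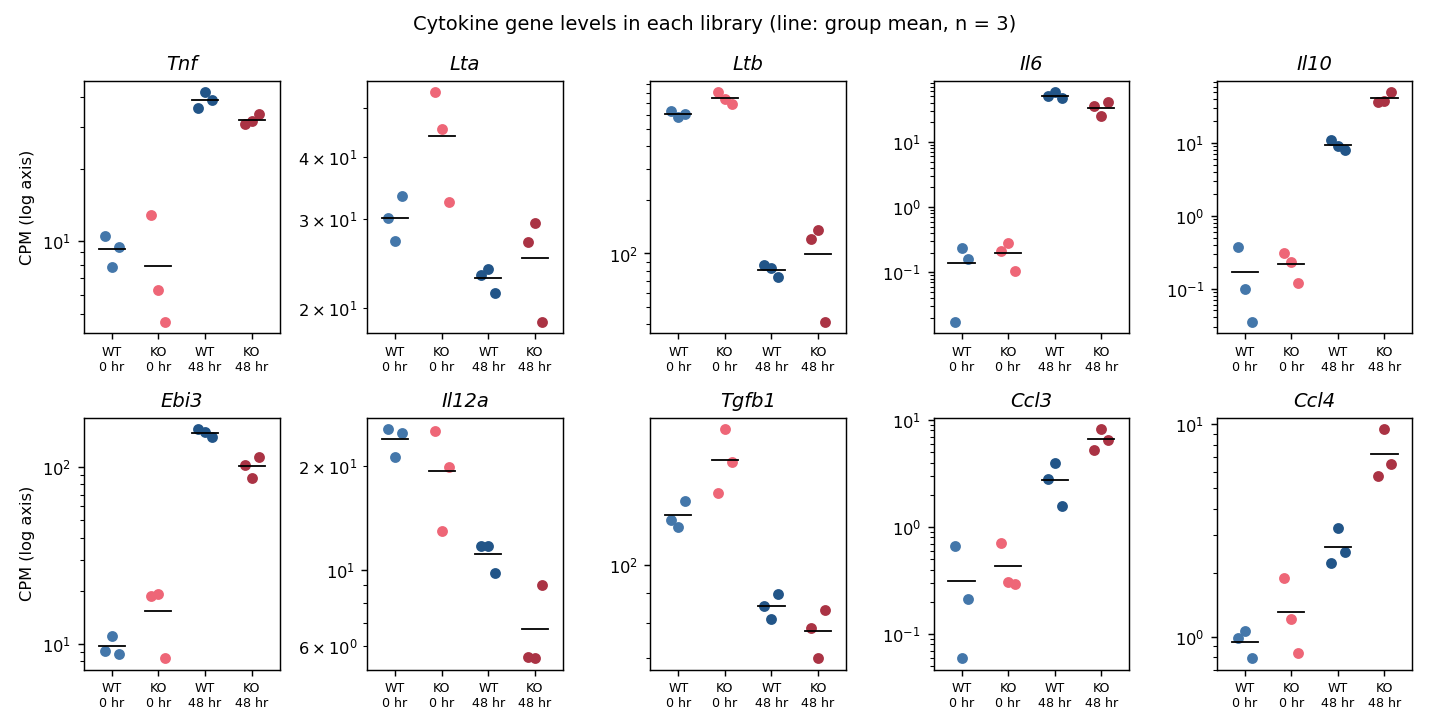
CPM on log axes in each of the 12 libraries, 1 panel per gene, with a line at the mean of each group of 3. Il6 and Il10 went from under 0.4 CPM at 0 hr to 7.98 CPM or more at 48 hr, Ltb went from 587 CPM or more to 136 CPM or less, and Il10 was the gene with the widest gap between WT and KO at 48 hr.

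Il6 encodes IL-6, which supports plasma cells and T cell help. Its CPM in WT 0 hr was 0.0175, 0.237 and 0.158, resting on 22 estimated counts in all, and at 48 hr it was 49.8, 57.3 and 47.2. In KO it was 0.209, 0.277 and 0.103 at 0 hr, from 36 counts, and 35.7, 24.7 and 40.5 at 48 hr. Every 48 hr library was far above every 0 hr library. Il6 rose by a log2 fold change of 8.55 (SE 0.42, edgeR adjusted p = 5.7e-10) in WT and 7.41 (SE 0.39, edgeR adjusted p = 1.3e-09) in KO, the widest rise among the members in WT. Leaving out any library kept both calls.

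Estimated shares of the 4 annotated Il6 transcripts at 48 hr are given as a description. One of them, uc008wuu.2, took 2.17%, 7.45% and 1.68% of the Il6 counts in WT and 17.7%, 10.6% and 15% in KO, with no overlap. In the other direction, uc057btq.1 took 5.53%, 3.68% and 2.76% in WT and 2.21%, 0.749% and 1.99% in KO, also with no overlap. The main form, uc008wuw.2, took 81.0%, 76.0% and 81.1% in WT and 68.3%, 76.8% and 66.0% in KO, and these ranges overlapped. Shares among similar transcripts are Salmon's estimates and were not tested.

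Il10 encodes IL-10, the cytokine that marks regulatory B cells. Its CPM was 0.368, 0.0988 and 0.0351 in WT 0 hr, from 28 counts, and 11.2, 9.13 and 7.98 in WT 48 hr. In KO it was 0.304, 0.231 and 0.118 at 0 hr, from 39 counts, and 36.6, 37.8 and 49.8 at 48 hr. The 0 hr values of WT and KO overlapped at a level near the limit of counting, and at 48 hr every KO library was above every WT library. Il10 rose over time by 5.78 (SE 0.46, edgeR adjusted p = 7.1e-08) on the log2 scale in WT and by 7.59 (SE 0.47, edgeR adjusted p = 5.2e-09) in KO. In KO the log2 rise of Il10 was the largest estimate among the members, with Il6 close to it (7.41, given above). In WT the rise of Il10 was smaller than that of Il6.

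Tnf, the founding pro-inflammatory member of its family, was at 10.6, 7.81 and 9.45 CPM in WT 0 hr and 35.9, 41.7 and 38.7 CPM in WT 48 hr. In KO it was at 12.8, 6.27 and 4.63 CPM and then at 30.9, 31.8 and 33.8 CPM. At 48 hr every KO library lay somewhat below every WT library, and the KO 0 hr libraries were the most spread. Tnf rose by 2.06 (SE 0.28, edgeR adjusted p = 1.7e-05) in WT and by 2.03 (SE 0.28, edgeR adjusted p = 2.1e-05) in KO on the log2 scale.

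Lta encodes lymphotoxin alpha, which is secreted alone or held at the surface with lymphotoxin beta. Its CPM was 30.1, 27.2 and 33.4 in WT 0 hr, 23.2, 23.9 and 21.4 in WT 48 hr, 53.7, 45.4 and 32.5 in KO 0 hr, and 27.1, 29.5 and 18.8 in KO 48 hr. Every 48 hr library lay below its own genotype's 0 hr libraries. The log2 change of Lta was -0.40 (SE 0.19, edgeR adjusted p = 0.07) in WT, not past the threshold, and it fell by 0.81 (SE 0.19, edgeR adjusted p = 0.0019) in KO. In WT, Lta was called lower in 6 of 21 alternatives: with a filter of 1 CPM in 3 libraries (adjusted p = 0.018), with the libraries of the comparison alone (0.0055), on leaving out KO replicate 6 (0.04), KO replicate 12 (0.043) or both (0.01), and with total counts in place of TMM (-1.30, adjusted p = 6e-05).

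Ltb encodes lymphotoxin beta, the membrane anchor of the lymphotoxin trimer. Its CPM was 630, 587 and 607 in WT 0 hr and 86.4, 82.7 and 73.3 in WT 48 hr, and 804, 740 and 694 in KO 0 hr and 120, 136 and 41.4 in KO 48 hr. Every 48 hr library was far below every 0 hr library, and KO replicate 12 was the lowest of all. Ltb fell by 2.91 on the log2 scale in WT (SE 0.31, edgeR adjusted p = 1.5e-06) and by 2.91 in KO (SE 0.31, edgeR adjusted p = 1.5e-06).

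These 3 genes of the tumour necrosis factor family lie side by side on chromosome 17 (mm10): Ltb at 35194439 to 35196320 on the plus strand, Tnf at 35199381 to 35202007 on the minus strand and Lta at 35203165 to 35205351 on the minus strand. The gap from Ltb to Tnf is 3.06 kb, the gap from Tnf to Lta is 1.16 kb, and all 3 genes fit in 10.9 kb. Within that stretch Tnf rose in both genotypes, Ltb fell in both, and Lta, the gene next to Tnf, did not rise in either. Chromosome 11 holds the other close pair, Ccl3 (83647844 to 83649355, minus strand) and Ccl4 (83662584 to 83664683, plus strand), 13.23 kb apart, and both of those rose.

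Ebi3 encodes a subunit that forms IL-27 with the Il27 product and IL-35 with the Il12a product. Its CPM was 9.21, 11.2 and 8.86 in WT 0 hr and 164, 158 and 147 in WT 48 hr, and 18.7, 19.2 and 8.34 in KO 0 hr and 103, 87.3 and 114 in KO 48 hr. The WT 48 hr libraries were the highest of the 4 groups, and at 0 hr KO replicate 6 stood with WT and apart from the other KO libraries. Ebi3 rose by 4.01 (SE 0.26, edgeR adjusted p = 9.1e-09) in WT and by 2.72 (SE 0.25, edgeR adjusted p = 2.9e-07) in KO on the log2 scale. The antisense gene Gm16712 overlaps Ebi3 (chromosome 17, 55952640 to 55957022) and shares 19.0% of its 31-base words, and the library kit does not record strand, so reads from the shared stretch cannot be told apart. Gm16712 was counted at 2.80 CPM in WT 0 hr, 4.27 in KO 0 hr, 11.3 in WT 48 hr and 7.30 in KO 48 hr (means, n = 3).

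Il12a encodes p35, the partner of p40 in IL-12 and of EBI3 in IL-35. Its CPM was 25.6, 21.2 and 25.1 in WT 0 hr, 11.7, 11.7 and 9.80 in WT 48 hr, 25.4, 13.0 and 19.9 in KO 0 hr, and 5.54, 5.51 and 9.02 in KO 48 hr. It was lower at 48 hr in every library of both genotypes, so the 2 subunit genes of IL-35 moved in opposite directions. Il12a fell by 1.12 (SE 0.24, edgeR adjusted p = 0.00093) in WT and by 1.53 (SE 0.25, edgeR adjusted p = 8.1e-05) in KO on the log2 scale. The partner genes were low at 48 hr: Il12b, which encodes p40, fell from 3.27 ± 1.03 to 0.263 ± 0.112 CPM in WT (SD, n = 3; log2 -3.63, SE 0.55, edgeR adjusted p = 5e-05) and from 1.33 ± 0.949 to 0.146 ± 0.0823 CPM in KO (n = 3; log2 -3.17, SE 0.58, edgeR adjusted p = 0.00027). Il27, the partner of Ebi3 in IL-27, stayed at 25, 30, 22 and 18 counts per group of 3 libraries (WT 0 hr, KO 0 hr, WT 48 hr, KO 48 hr), and Il23a was too low to be tested.

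Tgfb1 encodes TGF-beta 1. Its CPM was 119, 116 and 128 in WT 0 hr, 85.3, 81.4 and 89.7 in WT 48 hr, 132, 169 and 149 in KO 0 hr, and 78.6, 69.8 and 84.1 in KO 48 hr. All 48 hr libraries were below all 0 hr libraries, with a narrow spread in each group. Tgfb1 fell by 0.50 (SE 0.11, edgeR adjusted p = 0.0011) in WT and by 0.95 (SE 0.11, edgeR adjusted p = 4.2e-06) in KO on the log2 scale.

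Ccl3 encodes MIP-1 alpha. Its CPM was 0.667, 0.0593 and 0.211 in WT 0 hr and 2.78, 3.94 and 1.56 in WT 48 hr, and 0.703, 0.308 and 0.294 in KO 0 hr and 5.25, 8.20 and 6.46 in KO 48 hr. Ccl4, which encodes MIP-1 beta, was at 0.983, 1.07 and 0.791 CPM in WT 0 hr, 2.21, 3.24 and 2.51 in WT 48 hr, 1.88, 1.22 and 0.838 in KO 0 hr, and 5.69, 9.50 and 6.51 in KO 48 hr. For both chemokines the KO 48 hr libraries were the highest of the 4 groups and did not overlap WT 48 hr. Ccl3 rose by 3.12 (SE 0.61, edgeR adjusted p = 0.00044) in WT and 3.94 (SE 0.61, edgeR adjusted p = 6.2e-05) in KO on the log2 scale. Ccl4 rose by 1.49 (SE 0.33, edgeR adjusted p = 0.001) in WT and 2.47 (SE 0.33, edgeR adjusted p = 1.3e-05) in KO, and with total counts in place of TMM the WT change was 0.60 (adjusted p = 0.1).

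**Figure D2:**
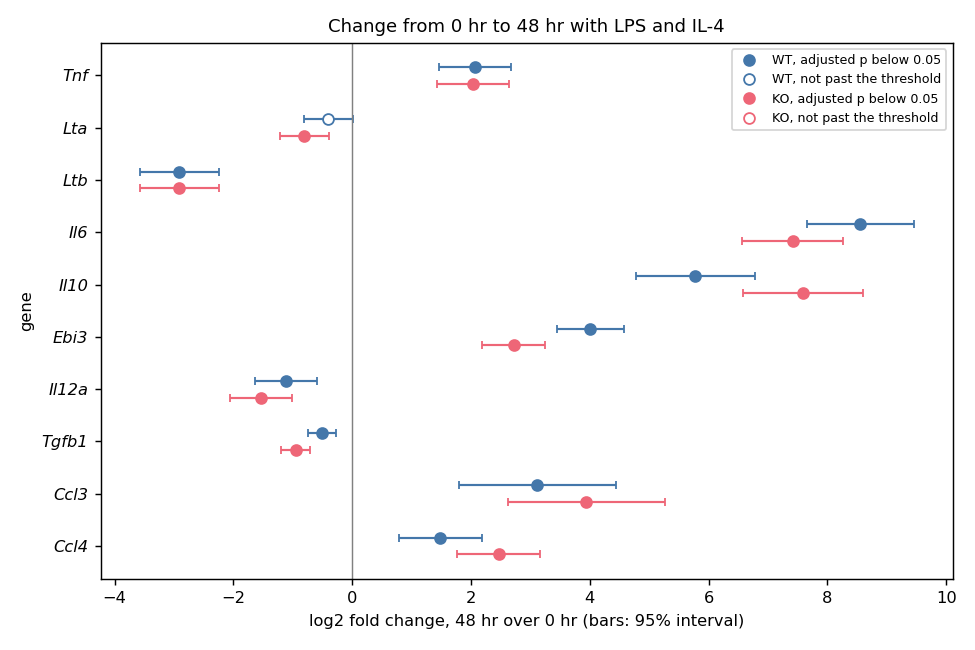
Log2 fold change from 0 hr to 48 hr for each gene in WT and KO, with 95% intervals, where filled points passed an adjusted p of 0.05. The change ran from -2.91 (Ltb) to 8.55 (Il6) in WT and from -2.91 (Ltb) to 7.59 (Il10) in KO, and only Lta in WT has an open point.

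The scaling bears on every change over time. TMM factors were 1.28 to 1.42 at 0 hr and 0.723 to 0.766 at 48 hr, and with total counts the median log2 change of all genes moved from -0.39 to -1.28 in WT and from -0.30 to -1.12 in KO. Each member kept its direction under total counts.

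At 0 hr, none of the 10 cytokine genes was called between KO and WT, and 1.11% of all tested genes were. DESeq2 and limma-voom called 0 as well, and 3 members had an unadjusted p below 0.05 in edgeR. Those 3 were higher in KO: the log2 fold change was 0.54 for Lta (SE 0.19, 95% interval 0.13 to 0.94, edgeR adjusted p = 0.27), 0.66 for Ebi3 (SE 0.24, 0.15 to 1.18, adjusted p = 0.28) and 0.31 for Tgfb1 (SE 0.11, 0.07 to 0.55, adjusted p = 0.28). Groups did not overlap for 2 members, Ltb and Tgfb1, both higher in KO, where 14.9% of all genes did not overlap. The other log2 values were 0.30 for Ltb, -0.31 for Il12a, -0.24 for Tnf and 0.46 for Ccl4, with edgeR adjusted p of 0.71 to 0.87. For Il6 (0.53), Il10 (0.32) and Ccl3 (0.44) the 95% intervals each covered -0.69 to 1.56, so differences of that size were not detectable at these counts.

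KO replicate 6 bears on the 0 hr comparison. Without it Ebi3 was called higher in KO (log2 0.96, edgeR adjusted p = 0.0027), and without replicates 6 and 12 together Ebi3 (0.96, adjusted p = 0.0014) and Lta (0.71, adjusted p = 0.0096) were called. In that library Ebi3 was at 8.34 CPM and Lta at 32.5 CPM, inside or below the WT range, against 18.7 and 19.2 CPM of Ebi3 and 53.7 and 45.4 CPM of Lta in the other KO 0 hr libraries.

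At 48 hr, 2 of the 10 genes were called between KO and WT, Il10 and Ccl4, both higher in KO, where 2.02% of all tested genes were called and 1.47% were higher. Il10 was 4.39 times as high in KO, at 41.4 ± 7.30 against 9.44 ± 1.63 CPM (SD, n = 3 each). Ccl4 was at 7.23 ± 2.00 against 2.65 ± 0.529 CPM (SD, n = 3 each). Groups did not overlap for 7 members, Il10, Ccl3 and Ccl4 higher in KO and Il6, Tnf, Ebi3 and Il12a lower, where 20.2% of all genes did not overlap. The median log2 difference was -0.00 over the members and 0.01 over all genes.

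On the log2 scale Il10 differed by 2.13 (SE 0.34, 95% interval 1.40 to 2.86), with an edgeR adjusted p of 0.005. The call held in 20 of 21 alternatives and was lost without WT 48 hr replicate 9 (log2 1.97, adjusted p = 0.053), the WT library with the lowest Il10. Over all alternatives the log2 value was 1.97 to 2.23. The group totals behind it were 1085 counts in WT and 4837 in KO.

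The log2 fold change of Ccl4 was 1.45 (SE 0.31, 95% interval 0.77 to 2.12, edgeR adjusted p = 0.032), from 304 counts in WT and 842 in KO. Its call was lost when any 1 of 7 libraries was left out: replicates 1 (adjusted p = 0.054) and 3 (0.051) of WT 0 hr, 7 (0.17), 8 (0.084) and 9 (0.14) of WT 48 hr, and 10 (0.06) and 11 (0.18) of KO 48 hr. The log2 value of Ccl4 stayed between 1.15 and 1.59 in all alternatives. Its neighbour Ccl3 differed by 1.26 (SE 0.54, 95% interval 0.10 to 2.43, edgeR adjusted p = 0.29) and was not called in any alternative.

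The 4 members whose KO libraries all lay below WT at 48 hr did not pass the test. Il12a differed by -0.73 (SE 0.24, 95% interval -1.25 to -0.20, edgeR adjusted p = 0.16), Ebi3 by -0.62 (SE 0.23, -1.12 to -0.13, adjusted p = 0.21), Il6 by -0.61 (SE 0.27, -1.19 to -0.04, adjusted p = 0.31) and Tnf by -0.27 (SE 0.27, -0.85 to 0.31, adjusted p = 0.72). Il12a was called lower by DESeq2 (-0.79, adjusted p = 0.042), without KO 48 hr replicate 12 (-1.0, adjusted p = 0.032) and without replicates 6 and 12 (-1.0, adjusted p = 0.031). Ebi3 was called lower with the libraries of the comparison alone (-0.62, adjusted p = 0.015), without KO 0 hr replicate 6 (-0.62, adjusted p = 0.019) and without both (-0.72, adjusted p = 0.006). Il6 and Tnf were called in none of the alternatives.

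The other 3 members overlapped between the genotypes at 48 hr. Ltb differed by 0.29 (SE 0.29, 95% interval -0.33 to 0.92, edgeR adjusted p = 0.72), Lta by 0.14 (SE 0.19, -0.28 to 0.55, adjusted p = 0.82) and Tgfb1 by -0.14 (SE 0.11, -0.38 to 0.10, adjusted p = 0.64). For Ltb, KO replicate 12 at 41.4 CPM lay below all WT libraries while the other 2 KO libraries lay above them. Without it Ltb was called higher in KO (0.66, adjusted p = 0.0063), and without KO replicate 11 the sign of Ltb (-0.05) and of Lta (-0.05) turned.

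**Figure D3:**
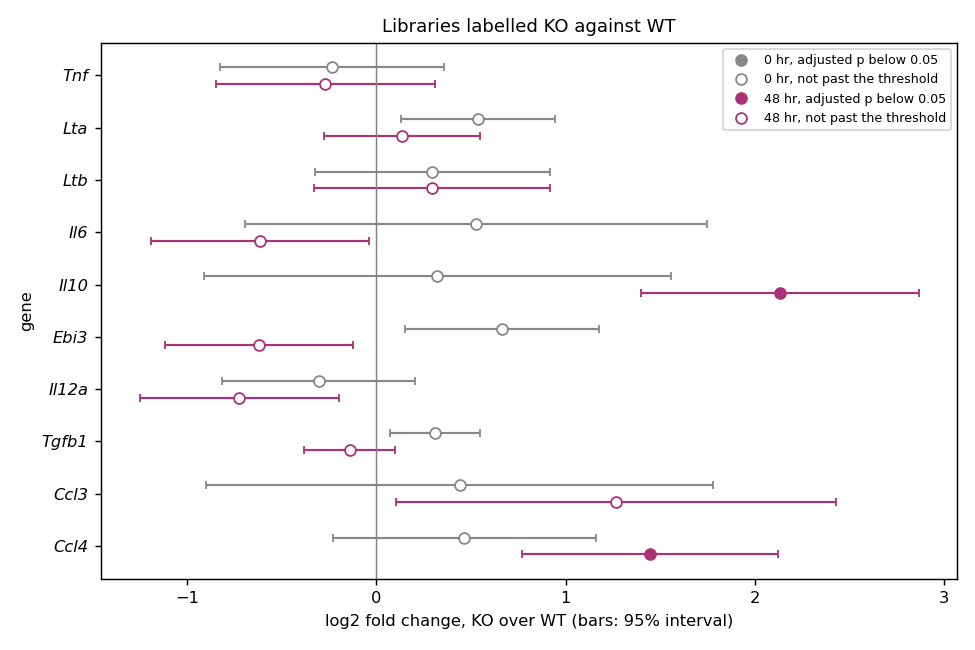
Log2 fold change of KO over WT for each gene at 0 hr (grey) and 48 hr (purple), with 95% intervals, where filled points passed an adjusted p of 0.05. The filled points are Il10 (2.13) and Ccl4 (1.45), both at 48 hr.

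Whether the change over time differed between KO and WT was tested as an interaction over the same 12 libraries. None of the 10 members was called, and 0.115% of all genes were (0.068% higher, 0.0471% lower). Ebi3 came nearest, with a smaller rise in KO (log2 difference -1.29, SE 0.33, 95% interval -2.00 to -0.57, edgeR adjusted p = 0.24). It was called by DESeq2 (-1.34, adjusted p = 0.02), without KO 0 hr replicate 6 (-1.59, adjusted p = 0.0053) and without replicates 6 and 12 (-1.68, adjusted p = 0.002), and limma-voom called 0. Il10 (1.81, SE 0.68, edgeR adjusted p = 0.47), Ccl4 (0.98, SE 0.45, adjusted p = 0.58) and Tgfb1 (-0.45, SE 0.16, adjusted p = 0.43) also had an unadjusted p below 0.05, which made 4 members in all. So the higher Il10 and Ccl4 of KO at 48 hr were not shown to differ from their 0 hr differences, and the 0 hr levels of Il10 rest on few counts.

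To set the genes beside each other, CPM was divided by the length of 1 GENCODE transcript model per gene, giving CPM per kb. At 0 hr in WT, Ltb led at 524 CPM per kb, followed by Tgfb1 (55.8), Lta (21.9), Il12a (18.9), Ebi3 (8.44), Tnf (5.66), Ccl4 (1.44), Ccl3 (0.408), Il10 (0.128) and Il6 (0.121), where Lta and Il12a overlapped, and so did Ccl3, Il10 and Il6. Lymphotoxin beta RNA thus exceeded the RNA of every other member in resting cells. At 48 hr in WT the order of CPM per kb was Ebi3 (136), Ltb (69.7), Il6 (45.1), Tgfb1 (39.3), Tnf (23.7), Lta (16.5), Il12a (8.73), Il10 (7.20), Ccl4 (4.02) and Ccl3 (3.61), with overlap only between Il12a and Il10 and between Ccl4 and Ccl3 among neighbours. Il6 moved from last to the third place.

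At 48 hr in KO the order of CPM per kb was Ebi3 (88.1), Ltb (85.4), Tgfb1 (35.6), Il10 (31.6), Il6 (29.5), Tnf (19.6), Lta (18.2), Ccl4 (11.0), Ccl3 (8.66) and Il12a (5.28). Il10 stood level with Il6 in KO, at 27.9 to 38.0 against 21.6 to 35.5 CPM per kb. In WT it lay well below Il6, at 6.09 to 8.55 against 41.4 to 50.2 CPM per kb. All neighbours in the KO order overlapped except Il6 and Tnf.

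**Figure D4:**
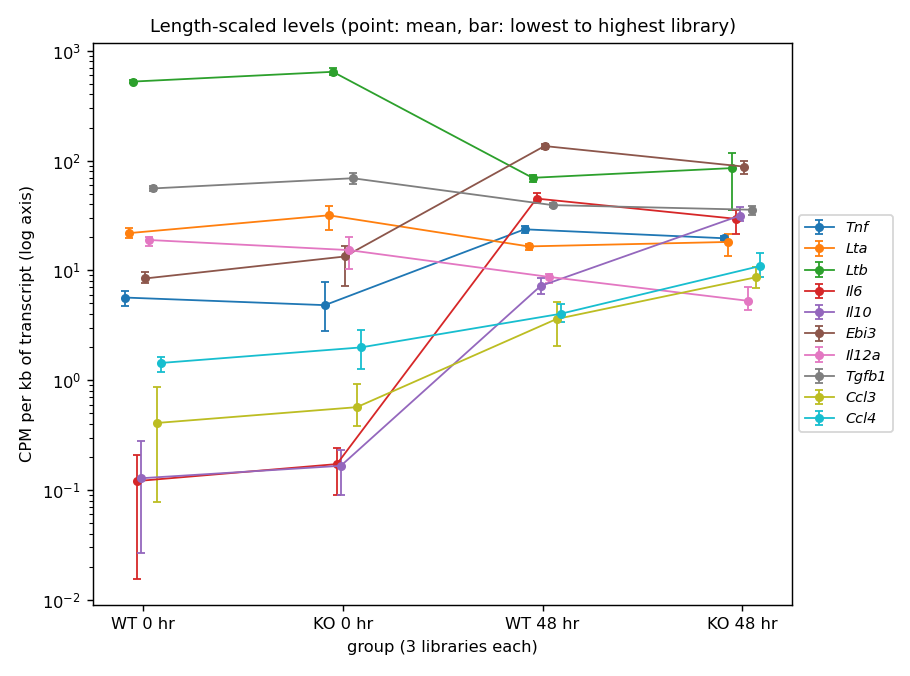
CPM per kb of transcript on a log axis in the 4 groups, with points at the mean of 3 libraries and bars from the lowest to the highest library, and lines that only join the same gene. Ltb is the highest at both 0 hr groups (524 in WT), and Il10 stands at 7.20 in WT 48 hr and 31.6 in KO 48 hr.

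The receptors of these cytokines were mostly lower after 48 hr. Of 17 receptor and co-receptor genes, 3 rose and 11 fell in WT, and 3 rose and 12 fell in KO, with medians of -1.34 and -1.36 against -0.39 and -0.30 over all genes. For this list and those below, the shares over all tested genes were 33% higher and 40.9% lower in WT, and 33% and 37.7% in KO. Il12rb1, a chain of the IL-12 receptor, rose from 3.36 ± 0.855 to 42.3 ± 4.60 CPM in WT (SD, n = 3; log2 3.66, SE 0.31, edgeR adjusted p = 1.5e-07) and by 3.72 (SE 0.32, adjusted p = 1.5e-07) in KO. Tnfrsf1a, the main death-domain receptor of TNF, fell from 3.62 ± 0.755 to 0.0860 ± 0.0526 CPM in WT (n = 3; log2 -5.34, SE 0.67, edgeR adjusted p = 8.1e-06) and by 3.59 (SE 0.56, adjusted p = 6.2e-05) in KO.

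Between KO and WT, 0 of the 17 receptor genes were called at 0 hr by edgeR, with 2 at an unadjusted p below 0.05. At 48 hr 1 was called lower, 8 had an unadjusted p below 0.05 in edgeR, and 8 did not overlap. Over all tested genes, 1.11% were called at 0 hr, 0.544% were called lower at 48 hr, and 20.2% did not overlap at 48 hr. Tgfbr3, a TGF-beta co-receptor, was at 0.653 ± 0.338 CPM in WT and 0.0350 ± 0.0403 CPM in KO (log2 -4.15, SE 0.79, edgeR adjusted p = 0.018), and its call was lost by limma-voom (0.11) and on leaving out replicate 8 (0.06) or 9 (0.069) of WT 48 hr or 10 (0.073) of KO 48 hr.

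Of 12 genes for release or activation of the cytokines, 2 rose and 7 fell in WT and 2 rose and 8 fell in KO. Lrrc32 (GARP), which docks latent TGF-beta 1 on the cell surface, rose from 1.13 ± 0.528 to 29.5 ± 2.67 CPM in WT (n = 3; log2 4.71, SE 0.31, edgeR adjusted p = 8.9e-09) and by 4.44 (SE 0.30, adjusted p = 1.5e-08) in KO, while Tgfb1 itself fell. Thbs1, thrombospondin 1, which can activate latent TGF-beta, fell by 4.40 in WT (SE 0.71, edgeR adjusted p = 7.8e-05) and by 4.67 in KO (SE 0.73, adjusted p = 6.5e-05). None of the 12 was called between KO and WT at either time by edgeR, and none had an unadjusted p below 0.05.

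All 9 regulators of cytokine mRNA stability were called over time, 4 higher and 5 lower in both genotypes, where 73.9% of all tested genes were called in WT and 70.7% in KO. Their median log2 change was -0.44 in WT and -0.59 in KO, against -0.39 and -0.30 over all genes. The 3 genes given next do not stand for the whole list. Zfp36 (tristetraprolin), which binds AU-rich elements, fell from 403 ± 64.5 to 81.2 ± 9.25 CPM in WT (SD, n = 3; log2 -2.31, SE 0.18, edgeR adjusted p = 6.9e-08) and by 1.53 (SE 0.18, adjusted p = 4.2e-06) in KO. Its binding to the windows shown above was not measured. Zfp36l2 of the same family fell by 2.45 (SE 0.20, edgeR adjusted p = 1.1e-07) in WT and 2.94 (SE 0.21, adjusted p = 2.2e-08) in KO. Elavl1 (HuR), which binds AU-rich RNA and stabilises it, rose from 145 ± 13.9 to 425 ± 17.4 CPM in WT (n = 3; log2 1.55, SE 0.12, edgeR adjusted p = 4.6e-08) and by 1.58 (SE 0.12, adjusted p = 4.1e-08) in KO. Between KO and WT edgeR called 0 of the 9 at either time, with 3 at an unadjusted p below 0.05 at 0 hr and 0 at 48 hr.

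Of 12 transcription factors reported at Il10 or Il6, 6 rose and 1 fell over time in WT, and 6 rose and 2 fell in KO. Nfil3 rose from 3.61 ± 0.405 to 346 ± 15 CPM in WT (SD, n = 3; log2 6.58, SE 0.30, edgeR adjusted p = 3e-10) and by 6.97 (SE 0.31, adjusted p = 2.4e-10) in KO. Maf, a known activator of Il10 in other lymphocytes, fell by 2.14 (SE 0.33, edgeR adjusted p = 6.1e-05) in WT and 2.77 (SE 0.34, adjusted p = 7e-06) in KO while Il10 rose.

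At 48 hr edgeR called 1 of the 12 factors higher in KO and 1 lower, with 4 at an unadjusted p below 0.05. It called 0 at 0 hr, with 3 at an unadjusted p below 0.05. Over all tested genes, 1.47% were called higher and 0.544% lower at 48 hr, and 1.11% were called at 0 hr. Prdm1 (BLIMP-1), the plasma cell factor, was at 11.1, 11.1 and 14.9 CPM in WT 48 hr and 33.5, 31 and 59.5 CPM in KO 48 hr. Every KO library was above every WT library, with replicate 12, which stood near WT on the second principal component, the highest (log2 1.74, SE 0.28, edgeR adjusted p = 0.0048). The Prdm1 call was lost without WT 48 hr replicate 7 (1.63, adjusted p = 0.051). Batf, an AP-1 family factor, was at 387 ± 29.5 CPM in WT and 230 ± 21.6 CPM in KO (n = 3; log2 -0.75, SE 0.12, edgeR adjusted p = 0.0066), and this call held in all 21 alternatives.

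Of 37 other cytokine and chemokine genes, 30 could be tested, and Il2, Il4, Il9, Il13, Il17a, Il22 and Ccl17 were too low. In WT 9 rose and 12 fell over time, and in KO 6 rose and 12 fell. Ccl22, a chemokine for CCR4, rose from 3.22 ± 1.11 to 147 ± 8.43 CPM in WT (SD, n = 3; log2 5.52, SE 0.37, edgeR adjusted p = 1e-08) and by 6.26 (SE 0.39, adjusted p = 5.5e-09) in KO. Mif rose by 3.50 (SE 0.18, edgeR adjusted p = 8.8e-10) and 3.34 (SE 0.18, adjusted p = 1.4e-09), and Vegfa by 4.08 (SE 0.29, adjusted p = 1.8e-08) and 4.66 (SE 0.29, adjusted p = 6.8e-09), in WT and KO.

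Between KO and WT, 1 of these 30 was called lower at 0 hr and 1 higher at 48 hr. Over all tested genes, 0.429% were called lower at 0 hr and 1.47% higher at 48 hr. Cxcl10, an interferon-induced chemokine, averaged 1.45 ± 0.361 CPM without stimulation in WT against 0.464 ± 0.192 CPM in KO (log2 -1.62, SE 0.29, edgeR adjusted p = 0.015), and its call was lost with the libraries of the comparison alone (0.14) and on leaving out replicate 2 of WT (0.062) or 4 of KO (0.052). Il18 averaged 0.200 ± 0.0280 CPM in WT and 0.592 ± 0.15 CPM in KO at 48 hr (log2 1.55, SE 0.33, edgeR adjusted p = 0.029). The Il18 call was lost in 7 of 21 alternatives: by limma-voom (0.19), with the libraries of the comparison alone (0.09), and on leaving out replicate 7 (0.098), 8 (0.12) or 9 (0.13) of WT 48 hr or 10 (0.06) or 11 (0.15) of KO 48 hr. In none of the 6 lists did edgeR call a gene in the interaction test.

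The labelled B cell identity was checked on 7 B cell markers, which summed to 5408 to 9428 CPM in every library. Over 48 hr edgeR called 4 of the 7 lower and 1 higher in each genotype, where 40.9% of all tested genes fell in WT and 37.7% in KO. In WT, mean Cd79a went from 2528 to 899 CPM and mean Pax5 from 49.0 to 17.5 CPM, while mean Ms4a1 went from 1327 to 2462 CPM. Markers of other cytokine-producing cells summed to far less than the B cell markers in every library and moved with some of the results. The 9 macrophage or monocyte markers summed to 132 to 389 CPM at 0 hr and 19.9 to 44.9 CPM at 48 hr, and all 9 fell in both genotypes, while Il6, Il10 and Tnf rose.

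At 48 hr, summed markers of several cell types were higher in KO replicates 10 and 11 than in WT. The macrophage or monocyte markers summed to 19.9 to 22.7 CPM in WT and to 24.9, 44.9 and 26.3 CPM in KO, so every KO library was above every WT library, as for Il10, Ccl3 and Ccl4. Within that list Cd68 was at 2.68, 3.86 and 4.86 CPM in WT and 8.40, 11.4 and 5.06 CPM in KO, with no overlap. Lyz2 was at 5.67, 3.92 and 4.09 CPM in WT and 8.03, 19.9 and 3.40 CPM in KO, and Csf1r at 0.309 to 0.537 CPM in WT and 0.158 to 0.813 CPM in KO, and both overlapped. EdgeR called none of the 9 between KO and WT at 48 hr. The 9 T cell markers found summed to 39.1 to 43.0 CPM in WT and to 113, 113 and 45.1 CPM in KO, of which Lck made 110, 108 and 41.9 CPM, while Cd3e was at 0.0493, 0.528 and 0 CPM. The 7 NK cell markers summed to 3.40 to 4.92 CPM in WT and to 8.50, 12.4 and 3.76 CPM in KO, of which Prf1 made 0.768 to 1.22 CPM in WT and 4.73, 6.81 and 1.69 CPM in KO. Ncr1, a defining NK cell gene, overlapped at 0.0772 to 0.405 CPM in WT and 0.182 to 0.369 CPM in KO. The 5 mast cell or basophil markers summed to 0.351 to 0.773 CPM in WT and 5.64, 8.60 and 1.19 CPM in KO, of which Kit made 5.52, 8.28 and 0.959 CPM. Mcpt8, a defining gene of basophils, was at 0 in all 48 hr libraries. The 5 plasma cell markers, which include Prdm1, summed to 574 to 578 CPM in WT and 644, 705 and 821 CPM in KO. Of this, Xbp1 made 538 to 545 CPM in WT and 583, 624 and 725 CPM in KO. The sum, Xbp1 and Prdm1 were highest in replicate 12, the KO library that also had the most Il10 (49.8 CPM). Other genes of the list were not highest in replicate 12. Sdc1 was at 5.30, 5.81 and 5.30 CPM in WT 48 hr and 11.5, 13.6 and 9.78 CPM in KO 48 hr. It did not overlap between the labels, and within KO it was lowest in replicate 12. Jchain was at 16.1, 19.6 and 15.4 CPM in WT 48 hr and 15.4, 36.8 and 27.3 CPM in KO 48 hr, with overlap. Tnfrsf17 was at 0 in replicate 12. At 48 hr edgeR called higher in KO 1 of 7 NK cell markers, 1 of 2 tested mast cell or basophil markers and 2 of 5 plasma cell markers. It called 0 of 9 T cell markers, and 1.47% of all tested genes were called higher. At 0 hr it called 1 plasma cell marker higher in KO, where 0.68% of all tested genes were called higher. The part of these cell types in the KO values of Il10, Ccl3 and Ccl4 was not tested.

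At 0 hr the T cell markers summed to 61.7 to 70.7 CPM in WT and to 121, 122 and 58.5 CPM in KO, so replicate 6 lay with WT there too. Macrophage or monocyte markers summed to 132 to 256 CPM in WT 0 hr and 205, 389 and 151 CPM in KO 0 hr. Their part in the 0 hr levels of Lta and Ebi3 was not tested. Erythroid markers summed to 278 to 3366 CPM at 0 hr, highest in KO replicate 4, and to 13.4 CPM or less at 48 hr. At 48 hr, neutrophil markers summed to 0.765 CPM or less, and platelet markers to 2.35 CPM or less. Dendritic cell markers summed to 92.8 to 98.7 CPM in WT 48 hr and to 74.2, 60.8 and 75.2 CPM in KO 48 hr, with no overlap, of which Flt3 made 84.0, 85.7 and 86.5 CPM in WT and 58.1, 47.8 and 64.2 CPM in KO. This sum and Flt3 were lower in every KO library than in every WT library, as were Il6, Tnf, Ebi3 and Il12a. Other genes of the list did not share that gap. At 48 hr mean Zbtb46 was higher with the KO label (11.7 against 8.11 CPM), and so was mean Xcr1 (1.39 against 0.890 CPM), both with overlap. Clec9a (KO mean 0, WT mean 0.0266 CPM), Itgax (0.120 and 0.155) and Siglech (0.180 and 0.296) were low and overlapped. EdgeR called none of the 6 dendritic cell markers between KO and WT. The part of dendritic cells in the values of Il6, Tnf, Ebi3 and Il12a was not tested.

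**Figure D5:**
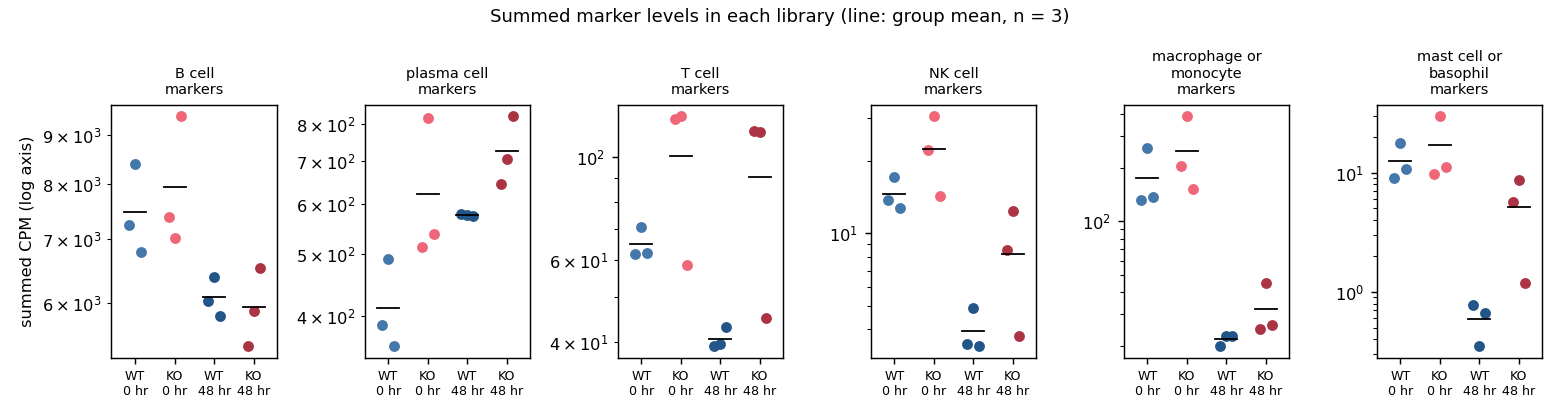
Summed CPM of 6 marker lists on log axes in each of the 12 libraries, with a line at the mean of each group of 3. B cell markers stay at 5408 CPM or more, macrophage or monocyte markers fall to 44.9 CPM or less at 48 hr, and among the 48 hr libraries T cell, NK cell and mast cell or basophil markers are highest in KO replicates 10 and 11.

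For each cytokine gene, the 2 genes with the nearest pattern over the 12 libraries were taken by the root mean square difference of log2(CPM + 1), centred on each gene's mean, among genes at 5 CPM or more in some group. Il6 was nearest to Cdc6 (0.296 log2 units) and Ifit1 (0.322), Il10 to Irg1 (0.411) and Nt5dc2 (0.611), and Tnf to Epb41l4aos (0.183) and Gas5 (0.199). Lta was nearest to Dtx3 (0.113), Ltb to Cxxc5 (0.257), Ebi3 to Ccnd2 (0.207), and Il12a to Slc50a1 (0.134). Tgfb1 was nearest to Mgat1 (0.0865), Ccl3 to Eaf2 (0.289), and Ccl4 to Glipr1 (0.208). Irg1, the nearest to Il10, had means of 0.113, 0.108, 15.8 and 33.1 CPM in WT 0 hr, KO 0 hr, WT 48 hr and KO 48 hr, where Il10 had 0.168, 0.218, 9.44 and 41.4 CPM. The distance of Il10 to its nearest gene was the largest of the 10 members, and no member was among the 2 nearest genes of another.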

How the data were processed

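RNA-seq libraries of mouse splenic B cells were analysed in 4 groups of 3. RNA was amplified with a SMART-Seq v4 kit, per the labels' protocols, and that kit does not mark strand. The deposited table holds 1 estimated count per transcript, in whole numbers, made by the authors. Per the submitters' processing notes, they used bcl2fastq 2.20.0.422, Trimmomatic 0.36, Salmon 0.8.2 with mm10, and DESeq2 1.14.1. Salmon splits reads among similar transcripts, so transcript shares are estimates.

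Counts were summed per gene name, with trailing spaces cut from 344 names. Library totals were 39 to 53.2 M (median 51.1 M). Genes passing filterByExpr (19125) were scaled by TMM and fitted together as 4 groups in edgeR 4.0.16 under R 4.3.3 (quasi-likelihood, robust, no covariate), with 5 contrasts. Benjamini-Hochberg adjustment ran over all 19125 genes. The procedure was tested on simulated data. Positions and lengths are from GENCODE M21 (mm10), and promoters from RefSeq (GRCm38.p6). Reads copied by PCR were not removed by molecular tags, so counts are not independent molecules.

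The members, gene lists and tests were chosen with earlier results of these data known. All 10 members were named in every comparison, and Chd4 was read in every library. Called genes of each list could be named, up to 6 a list and comparison in order of fold change, and only some of them are given here. The 2 nearest genes of each member were found by pattern, and 1 or both are given. Xist, Ddx3y, Gm16712, Il27, Il23a and single marker genes were added after their values were seen. Alternatives were DESeq2 1.42.0, limma-voom (limma 3.58.1), relative log expression scaling, TMM leaving out immunoglobulin, mitochondrial and ribosomal protein genes, no filter, a filter of 1 CPM in 3 libraries, the libraries of each comparison alone, each library left out, and KO replicates 6 and 12 left out. Scaling by total counts was added for the tests after the data were seen. The result of 1 receptor gene is not reported here. Figures were drawn with matplotlib 3.10.9.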

Additional observations from a re-analysis of the deposited data

How the results depend on the processing

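Over 21 alternatives (20 for the interaction), all 10 members were called over time in KO, and 9 to 10 in WT. At 0 hr, 0 members were called, 0 to 1 when a single library was left out (Ebi3 without KO replicate 6), and 2 (Lta and Ebi3) without KO replicates 6 and 12. At 48 hr, 2 were called, 0 to 4 when a single library was left out, and 5 without KO replicates 6 and 12 (Il10, Ltb, Ebi3, Il12a and Ccl4). In the interaction, 0 were called, 1 by DESeq2, 0 to 1 when a single library was left out, and 1 without KO replicates 6 and 12, each time Ebi3. The cause was not tested.

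Some small log2 differences changed sign, and the cause was not tested. When single libraries were left out, the 0 hr difference of KO and WT ran from -0.0091 (no WT replicate 1) to 1.13 for Il6, -0.17 (no WT replicate 3) to 1.66 for Il10, -0.77 to 0.0384 (no KO replicate 6) for Tnf, and -0.0673 (no KO replicate 4, and also below 0 with no WT replicate 2) to 1.63 for Ccl3. At 48 hr it ran from -0.050 to 0.31 for Lta and from -0.053 to 0.66 for Ltb, lowest in both with no KO replicate 11. The interaction ran from -0.31 to 0.49 for Tnf, above 0 with no WT replicate 2 or KO replicate 4, from -0.35 to 0.37 for Ltb, above 0 with no replicate 2, 3, 4, 7 or 12, and from -0.36 (no WT replicate 1) to 1.33 for Ccl3. Without KO replicates 6 and 12, Tnf at 0 hr was 0.0368 and the interaction of Ltb 0.32. The interaction of Tnf was 0.13 by limma-voom and 0.0338 with total counts, and that of Ltb 0.0729 with total counts.

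Over all genes, calls between KO and WT at 0 hr numbered 212, 650 by DESeq2, 75 with the libraries of the comparison alone, 79 to 426 when a single library was left out, and 674 without KO replicates 6 and 12. At 48 hr they numbered 386, 1060 by DESeq2, 193 by limma-voom, 136 to 1080 when a single library was left out, and 1351 without KO replicates 6 and 12. Interaction calls numbered 22, 221 by DESeq2, 3 to 90 when a single library was left out, and 136 without KO replicates 6 and 12. The share of calls higher in KO at 0 hr was 61.3% and 50.7% with total counts, and at 48 hr it was 73.1%, 55.2% by DESeq2 and 57.0% by limma-voom. The share higher over time was 44.6% in WT and 46.7% in KO, and 23.2% and 24.4% with total counts. In the interaction the share above 0 was 59.1%, and 75% with total counts. With total counts, member levels were 1.32 to 1.38 times as high at 0 hr and 0.732 to 0.754 times at 48 hr. Where a comparison lost a library, the remaining 2 of its group were assumed to vary like the other groups. At 0 hr, the counts of Il6, Il10 and Ccl3 limit what can be seen. No paired analysis was possible because the replicate numbers run from 1 to 12 and no 2 groups share one.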
